A study of Homo sapiens with 6 samples.

Results

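The genes described here serve ribosome biogenesis and transcription by RNA polymerase I, the enzyme that makes the long ribosomal RNA precursor in the nucleolus. They were chosen by symbol: 38 named nucleolar and pre-ribosomal genes and the 8 genes *POLR1A* to *POLR1H*, which together make 46 of the 20348 genes in the table. RNA was sequenced from MV4-11, an established human acute myeloid leukemia (AML) cell line, in 3 Ctrl samples that received a blank control and in 3 samples that received 1 μM WNK463, an inhibitor of the WNK kinases. Both groups were collected after 48 h. The comparison asks which transcripts differ after WNK inhibition. Total estimated counts were 17411780, 15328483 and 17246723 in Ctrl and 15824474, 16171235 and 14915745 with WNK463. Nothing in the labels says that the replicates came from separate cultures, so the p-values measure the spread between these samples, which may be technical.

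The precursor made by RNA polymerase I is modified by small nucleolar ribonucleoproteins (snoRNPs), cut within the small subunit processome, and packed with ribosomal proteins by assembly factors of the small and large subunits. Growing cells spend much of their transcription on this pathway, and many of its genes carry E-box sequences in their promoters that the MYC and MAX proteins can bind. Nucleophosmin, encoded by *NPM1*, is a nucleolar chaperone whose gene is often mutated in AML.

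Most of the 46 genes fell after WNK463 treatment. All 46 passed the filter on low counts, and with edgeR's quasi-likelihood test 36 of them were lower (adjusted p below 0.05), 2 were higher and 8 did not pass. Over all 11973 tested genes, 35.3% were lower and 35.5% were higher by the same rule. The members' median log2 fold change was -0.56, beside 0.016 over all tested genes, and 42 of 46 members lay below that all-gene median. With an added limit of 1 on the absolute log2 fold change, 7 members were lower (*UTP20*, *MRTO4*, *NHP2*, *BOP1*, *POLR1G*, *RRP1* and *FBL*) and 0 were higher, against 5.55% and 9.62% of tested genes. That count depended on the scaling: 2 members (*UTP20* and *MRTO4*) were lower and past the limit with total-count scaling, and 3 (those and *NHP2*) with limma on log2(TPM + 1). Of all tested genes, 3.83% were lower and past the limit with total-count scaling and 2.21% with limma. With TMM scaling, *FBL* was inside the limit without Ctrl replicate 1 (-0.99), *POLR1G* without WNK463 replicate 1 (-0.98) and *RRP1* without WNK463 replicate 2 (-0.99). In 35 members every WNK463 value lay below every Ctrl value, which was so for 36.4% of tested genes. The members lower by edgeR were 34.4% of their Ctrl level at the lowest (*UTP20*) and 89.2% at the highest (*LTV1*).

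The share of each library held by the 46 genes does not depend on the scaling between libraries. It was 0.83, 0.876 and 0.882% of counts in Ctrl and 0.664, 0.675 and 0.668% with WNK463, so the groups did not overlap. On the TPM scale, which divides by transcript length, their summed level was 8319 ± 324 in Ctrl and 6620.0 ± 66.4 TPM with WNK463 (SD, n = 3 each), or 79.6% of Ctrl. In bulk RNA, fewer cells with these transcripts and less of them per cell cannot be told apart. Scaling by total counts in place of edgeR's TMM factors raised the median of all tested genes by 0.15, and 63.9% of all called genes were then higher in place of 50.2%. Under that scaling 32 members were lower and 4 were higher. The members' median minus the all-gene median was -0.57 under either scaling. This difference is no check on the scaling, since a change of scaling shifts all genes nearly alike. Some called values shifted without a change of call: total counts gave *NOP58* -0.24, *GNL2* -0.13, *POLR1C* -0.20 and *POLR1D* 0.39, and limma on log2(TPM + 1) gave *NOP2* -0.48, *RRS1* -0.35, *POLR1E* -0.39 and *TAF1D* 0.55.

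**Figure D1:**
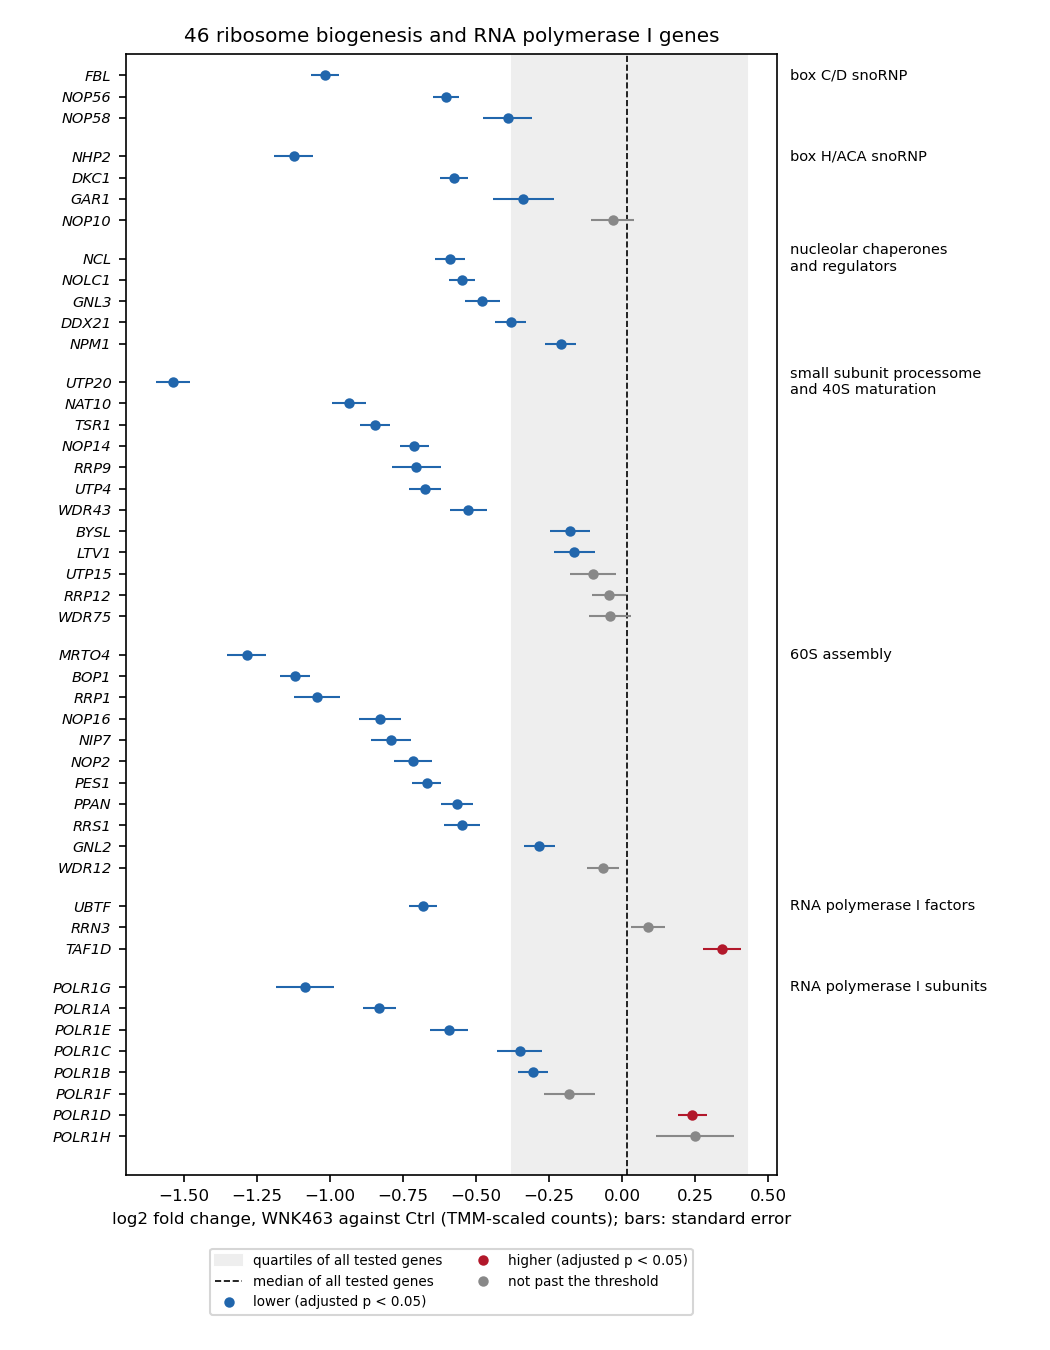
Log2 fold change (WNK463 against Ctrl, x axis) of the 46 genes, grouped by role, with bars for the standard error of the fit on 3 samples per group. The dashed line and the grey band are the median (0.016) and the quartiles (-0.38 and 0.43) of all tested genes; 36 points are blue (lower), 2 red (higher) and 8 grey (not past the threshold); with limma on log2(TPM + 1) *NOP10*, *WDR75*, *RRP12*, *WDR12*, *POLR1F*, *BYSL* and *LTV1* change sign.

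The box C/D snoRNP adds methyl groups to the ribose of ribosomal RNA, and its protein genes were all lower (3 of 3, median -0.60). *FBL* (ENSG00000105202), which encodes the methyltransferase fibrillarin, stood at 301, 281 and 285 CPM (counts scaled to a common library size with TMM factors) in Ctrl and at 143, 139.7 and 145 CPM with WNK463. Its WNK463 samples lay close together and far under all Ctrl samples. The log2 fold change of *FBL* was -1.02 (standard error 0.048, edgeR adjusted p = 3.68e-12). *NOP56* and *NOP58*, the paired scaffold proteins of the same particle, had log2 fold changes of -0.60 and -0.39. For *NOP58*, limma on log2(TPM + 1) gave -0.18 (adjusted p = 0.202), which did not pass. By TPM, *FBL* was the most abundant of the 3 genes, at 639.7 TPM in Ctrl and 358 TPM with WNK463.

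Pseudouridines are set by the box H/ACA snoRNP, of whose 4 protein genes 3 were lower (median -0.46). *NHP2* (ENSG00000145912), a core protein of that particle, had 148, 134 and 137 CPM in the Ctrl samples and 57.4, 64.4 and 70.4 CPM in the WNK463 samples. The groups were well apart, with more scatter among the WNK463 samples than for *FBL*. Its log2 fold change was -1.13 (standard error 0.068, edgeR adjusted p = 8.63e-11), and it was also the most abundant of the 4 by TPM, at 429 in Ctrl and 209 with WNK463. *DKC1*, the gene of the pseudouridine synthase dyskerin, had a log2 fold change of -0.58, and *GAR1* had -0.34. The call for *GAR1* was lost with total-count scaling (-0.19, adjusted p = 0.114) and with limma on log2(TPM + 1) (-0.14, adjusted p = 0.117). *NOP10*, the smallest core protein, had 37.7 ± 0.794 CPM in Ctrl and 37.0 ± 3.05 CPM with WNK463 (SD, n = 3 each). These groups overlapped, and its log2 fold change of -0.032 did not pass (edgeR adjusted p = 0.704) and was 0.12 with total-count scaling. With each sample left out it ran from -0.10 (without WNK463 replicate 3) to 0.015 (without WNK463 replicate 1). With limma on log2(TPM + 1) it passed as higher (0.16, adjusted p = 0.0381).

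All 5 genes of nucleolar chaperones and regulators were lower (median -0.48), and they included the most abundant members. *NCL* (ENSG00000115053), encoding nucleolin, stood at 1652, 1871 and 1914 CPM in Ctrl against 1206, 1222 and 1187 CPM with WNK463. Ctrl replicate 1 was the lowest Ctrl sample, and it was still above every WNK463 sample. The edgeR log2 fold change of *NCL* was -0.59 (standard error 0.052, adjusted p = 1.44e-08). *NPM1* (ENSG00000181163), the member with the highest TPM, had 1067, 1171 and 1249 CPM in Ctrl and 984, 1029 and 998 CPM with WNK463. Here the highest WNK463 sample came near the lowest Ctrl sample without reaching it. Its log2 fold change of -0.21 (standard error 0.052, edgeR adjusted p = 0.00157) was the smallest of the 5, and it did not pass with total-count scaling (-0.060, adjusted p = 0.324) or with limma on log2(TPM + 1) (-0.013, adjusted p = 0.87). On the TPM scale *NPM1* was at 1609 in Ctrl and 1591 with WNK463. GENCODE 29 names 45 pseudogenes after *NPM1*, none of which has a row in the table, so reads from such copies and from the gene cannot be told apart. *NOLC1*, encoding a snoRNP chaperone, *GNL3*, encoding nucleostemin, and *DDX21*, encoding a nucleolar RNA helicase, had log2 fold changes of -0.55, -0.48 and -0.38. With total-count scaling *DDX21* had -0.23, and limma on log2(TPM + 1) gave -0.19 for *DDX21* and -0.27 for *GNL3*, each still called lower.

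Of the 12 genes of the small subunit processome and of small subunit maturation, 9 were lower and 3 did not pass (median -0.60). *UTP20* (ENSG00000120800), a very large scaffold protein of the processome, had the largest fall of all 46 genes. It had 103, 99.5 and 103 CPM in Ctrl and 33.3, 36.7 and 35.3 CPM with WNK463. No Ctrl sample was within a factor of 2 of a WNK463 sample. Its log2 fold change was -1.54 (standard error 0.060, edgeR adjusted p = 3.04e-13). *NOP14* (ENSG00000087269), the processome gene with the highest TPM in the group, had 210.3, 218 and 207 CPM in Ctrl and 136, 126 and 126 CPM with WNK463. These values did not overlap either, and the log2 fold change was -0.71 (standard error 0.050, edgeR adjusted p = 7.23e-10).

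The other lower genes of this group spanned a wide range. *NAT10*, which acetylates cytidines of ribosomal RNA, had a log2 fold change of -0.94, and *TSR1*, a late maturation factor, had -0.85. *RRP9*, a protein of the U3 snoRNP, was at -0.71, and *UTP4* and *WDR43*, of the UTP-A complex that first joins the precursor, were at -0.68 and -0.53. *BYSL* and *LTV1*, which act in late small subunit maturation, were nearest to no change among the called genes, with -0.18 (edgeR adjusted p = 0.0255) and -0.16 (edgeR adjusted p = 0.046). The *LTV1* values of the groups overlapped, and both genes changed sign on the TPM scale, to 0.019 for *BYSL* and 0.032 for *LTV1*. The *BYSL* call was lost without Ctrl replicate 1 (-0.12), WNK463 replicate 1 (-0.18) or WNK463 replicate 3 (-0.18). For *LTV1* the value was -0.26 without Ctrl replicate 1, and the call was lost without Ctrl replicate 2 (-0.13), Ctrl replicate 3 (-0.13), WNK463 replicate 1 (-0.14) or WNK463 replicate 3 (-0.16). Neither passed with DESeq2 or with total-count scaling (-0.027 and -0.013), and *LTV1* did not with at least 10 counts in every sample (-0.15). *UTP15* and *WDR75*, also of the UTP-A complex, and *RRP12*, an export factor, had log2 fold changes of -0.10, -0.042 and -0.046 with overlapping groups, and each of these values was above 0 with total-count scaling. With each sample left out, *UTP15* ran from -0.15 (without WNK463 replicate 2) to -0.055 (without WNK463 replicate 1), *WDR75* from -0.12 (without Ctrl replicate 1) to 0.044 (without Ctrl replicate 3) and *RRP12* from -0.11 (without Ctrl replicate 3) to -0.0069 (without WNK463 replicate 2).

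Large subunit assembly had the lowest median of the member groups (-0.72), with 10 of 11 genes lower and 3 of them past the limit on the fold change. *MRTO4* (ENSG00000053372), a placeholder for a ribosomal stalk protein, had 116, 107 and 103 CPM in Ctrl and 42.0, 43.3 and 48.3 CPM with WNK463. *BOP1* (ENSG00000261236), of the PeBoW complex that processes the large subunit RNA, had 328, 299.7 and 294 CPM in Ctrl and 139.8, 142 and 142 CPM with WNK463. For *RRP1* (ENSG00000160214), a nucleolar processing factor, the Ctrl samples were at 74.4, 75.1 and 63.4 CPM and the WNK463 samples at 33.6, 31.6 and 38.0 CPM. In all 3 genes the groups were clearly apart, and the WNK463 samples of *BOP1* were nearly alike. The log2 fold changes were -1.29 for *MRTO4* (standard error 0.067, edgeR adjusted p = 1.32e-11), -1.12 for *BOP1* (standard error 0.051, adjusted p = 2.44e-12) and -1.05 for *RRP1* (standard error 0.080, adjusted p = 2.09e-09). *BOP1* had the highest TPM of the 11 in Ctrl (236), and with WNK463 it had 126 TPM, below *PES1* at 128.

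Among the remaining large subunit factors, *NOP16* (-0.83), *NIP7* (-0.79), the ribosomal RNA methyltransferase gene *NOP2* (-0.72), *PES1* (-0.67), *PPAN* (-0.57) and *RRS1* (-0.55) were lower by their log2 fold changes. The nucleolar GTPase gene *GNL2* was lower by edgeR (-0.28) and did not pass with limma on log2(TPM + 1) (-0.10, adjusted p = 0.13). *WDR12*, the third gene of the PeBoW complex, had a log2 fold change of -0.067 with overlapping groups (edgeR adjusted p = 0.28), and the value was 0.085 with total-count scaling and 0.12 on TPM. With each sample left out it ran from -0.10 (without WNK463 replicate 1) to -0.047 (without WNK463 replicate 2). *PPAN* shares exons with *P2RY11* and with their readthrough gene, so its reads and theirs cannot be told apart.

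The 3 factors that bring RNA polymerase I to the ribosomal DNA did not move together. *UBTF* (ENSG00000108312), which encodes the upstream binding factor of the ribosomal DNA, had 237, 248 and 246 CPM in Ctrl and 155, 146 and 154 CPM with WNK463. The groups were tight and separate, with a log2 fold change of -0.68 (standard error 0.048, edgeR adjusted p = 6.60e-10). *TAF1D* (ENSG00000166012), a subunit of the promoter selectivity factor SL1, had 60.7, 69.8 and 68.9 CPM in Ctrl and 82.1, 89.8 and 80.8 CPM with WNK463. Every WNK463 sample was above every Ctrl sample, with a log2 fold change of 0.34 (standard error 0.065, edgeR adjusted p = 1.39e-04). It was the largest rise among the 46 genes by edgeR. By TPM, *UBTF* was the highest in Ctrl (146 against 107) and *TAF1D*, at 156, was the highest of the 3 with WNK463. *RRN3*, which encodes the initiation factor TIF-IA, had a log2 fold change of 0.087 that did not pass with edgeR (adjusted p = 0.184) and passed with total-count scaling (0.24, adjusted p = 0.00182) and with limma on log2(TPM + 1) (0.27, adjusted p = 0.00644). By edgeR it was 0.052 without Ctrl replicate 2 and 0.035 without WNK463 replicate 2. The 5 further initiation and termination genes *TBP*, *TAF1A*, *TAF1B*, *TAF1C* and *TTF1* had a median of -0.028. Among them *TBP* alone was called, with a log2 fold change of -0.39 (edgeR adjusted p = 2.45e-04). With total-count scaling *TBP* had -0.24 (edgeR adjusted p = 0.0122), still called lower.

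Among the 8 genes *POLR1A* to *POLR1H*, 5 were lower, 1 was higher and 2 did not pass (median -0.33). *POLR1G* (ENSG00000117877), encoding a subunit found in RNA polymerase I alone, had 34.4, 38.8 and 36.5 CPM in Ctrl and 14.4, 17.3 and 20.0 CPM with WNK463. The groups were separate although the WNK463 samples were spread out, and the log2 fold change was -1.09 (standard error 0.10, edgeR adjusted p = 2.33e-08). *POLR1D* (ENSG00000186184), encoding a subunit shared with RNA polymerase III, had 134, 128 and 130.1 CPM in Ctrl and 160.0, 148 and 156 CPM with WNK463. All its WNK463 values were above the Ctrl values, with a log2 fold change of 0.24 (standard error 0.050, edgeR adjusted p = 3.76e-04). The largest catalytic subunit gene, *POLR1A*, had a log2 fold change of -0.83, and *POLR1B*, the other catalytic subunit gene, had -0.31 (-0.15 with total-count scaling). *POLR1E*, whose product pairs with that of *POLR1G*, had -0.59. *POLR1C*, also shared with RNA polymerase III, had -0.35 and did not pass with limma on log2(TPM + 1) (-0.14, adjusted p = 0.161). *POLR1F* (-0.18) did not pass, had 0.013 on TPM, and passed with no filter (-0.20) and without Ctrl replicate 1 (-0.28). *POLR1H* (0.25, edgeR adjusted p = 0.105) had the fewest counts of the 46 and stood at 8.60 ± 0.618 CPM in Ctrl and 10.2 ± 1.52 CPM with WNK463 (SD, n = 3 each). It did not pass with TMM scaling, where the value was 0.12 without WNK463 replicate 2, and passed with total-count scaling (0.40, adjusted p = 0.0146) and with limma on log2(TPM + 1) (0.41, adjusted p = 0.00969). By TPM, *POLR1D* was the most abundant of the 8 in both groups, at 183 and 212.

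**Figure D2:**
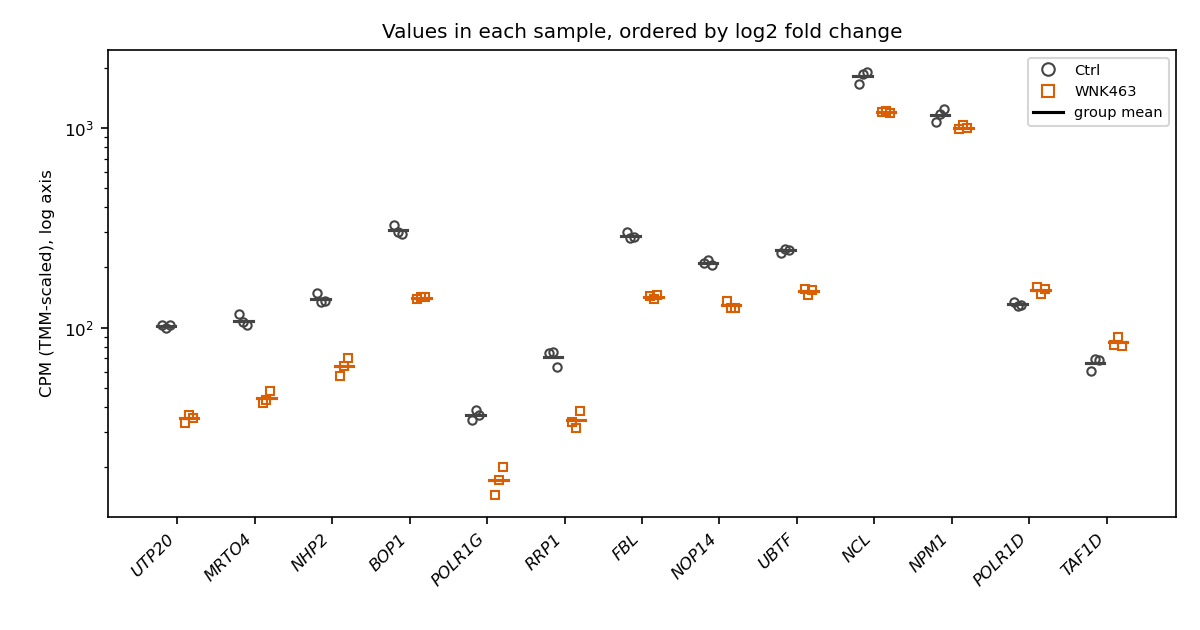
TMM-scaled CPM on a log axis in each Ctrl sample (circles) and WNK463 sample (squares) for the 13 members whose values are given by sample, with bars for the group means (n = 3 each). The groups do not overlap in any of the 13. *TAF1D* and *POLR1D* are higher with WNK463 and the other 11 are lower. Most of the 13 were chosen by their calls and the size of their change, so the separation largely follows from the choice. Of all tested genes, 36.4% had every WNK463 value below every Ctrl value.

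Members of the same complex differed in their log2 fold changes, which can be read from ratios of counts within a sample, where no scaling between libraries enters. The 13 ratios were chosen after the values had been seen and are a description. In each of them the gene with the lower log2 fold change stands first, so a negative difference follows from that choice. For *BOP1* to *WDR12* the log2 ratio of counts was 1.84, 1.63 and 1.60 in Ctrl and 0.56, 0.68 and 0.67 with WNK463, a difference of -1.05. For *NHP2* to *NOP10* it was 1.96, 1.86 and 1.84 in Ctrl and 0.74, 0.83 and 0.80 with WNK463, a difference of -1.09. Neither pair of groups overlapped. The catalytic pair *POLR1A* to *POLR1B* had 1.17, 1.14 and 1.03 in Ctrl and 0.61, 0.56 and 0.60 with WNK463, a difference of -0.53. For the subunits shared with RNA polymerase III, *POLR1C* to *POLR1D*, the log2 ratio was -2.02, -1.78 and -1.88 in Ctrl and -2.46, -2.51 and -2.49 with WNK463, a difference of -0.59. These ratios, too, were lower in every WNK463 sample. Within the UTP-A complex the differences were -0.57 for *UTP4* to *UTP15* and -0.49 for *WDR43* to *WDR75*. The difference was -0.63 for *FBL* to *NOP58* and -0.50 for *POLR1G* to *POLR1E*, both with separate groups. The log2 ratio of *NOP56* to *NOP58* was 1.48, 1.13 and 0.98 in Ctrl and 1.09, 0.89 and 0.95 with WNK463. It differed by -0.22 with overlapping groups, and Ctrl replicate 1 stood above all other samples. An exact permutation test (two-sided) on any 1 ratio could not reach a p under 0.10 with these group sizes.

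**Figure D3:**
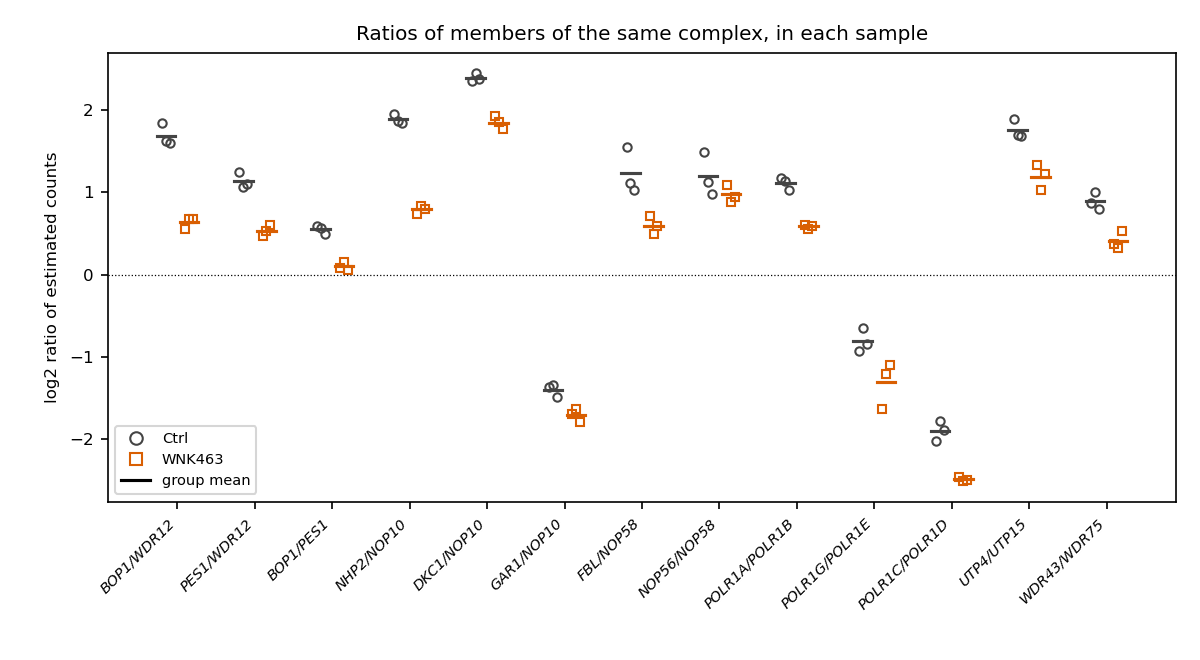
Log2 ratio of estimated counts between members of the same complex (y axis) in each Ctrl sample (circles) and WNK463 sample (squares), with bars for group means (n = 3 each). The WNK463 values lie below all Ctrl values in 12 of the 13 ratios, and they overlap for *NOP56* to *NOP58*. The gene with the lower log2 fold change was put first in each ratio, so the direction is fixed by this choice.

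The wider pathway was described with 135 further genes, listed by role, of which 97 were lower, 8 were higher and 30 did not pass (median -0.41). These counts were taken with TMM scaling, by which 35.3% of all tested genes were lower and 35.5% were higher. With total-count scaling, which raised the median of all tested genes by 0.15, and on the TPM scales, more of them were higher (last section). The 50 other small subunit factors had 34 lower and 4 higher genes and a median of -0.36. In that list *RRP7A* had the largest fall (-1.30) and *KRR1* the largest rise (0.38, or 0.25 without Ctrl replicate 1). The 54 other large subunit factors had 43 lower and 2 higher genes and a median of -0.44. *MYBBP1A* fell furthest among them (-1.34), and *SBDS*, which acts in the last step of large subunit maturation and is mutated in Shwachman-Diamond syndrome, rose most (0.84). Of 14 genes of the nuclear exosome, which trims precursor ends, 11 were lower and 1 was higher, with *EXOSC2* at -0.93 and *EXOSC6* at 0.38. Of 12 snoRNP assembly factors 8 were lower and 1 was higher, with *RUVBL1* at -0.89 and *ZNHIT3* at 0.31. The *ZNHIT3* call was lost without Ctrl replicate 2 (0.22, adjusted p = 0.051).

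The other nuclear RNA polymerases were set beside RNA polymerase I. The counts below are to be read beside all tested genes, of which 35.3% were lower and 35.5% were higher. Of 5 genes for subunits shared by all 3 enzymes, 4 were lower (median -0.51), with *POLR2E* lowest at -0.65. Of 7 RNA polymerase II genes 6 were lower and 0 were higher (median -0.38), with *POLR2D* at -0.60. The 11 RNA polymerase III genes had 5 lower and 3 higher members (median -0.13), from *POLR3K* (-0.76) to *POLR3GL* (0.71). Total-count scaling raised the median of all tested genes by 0.15, more than the size of this median, so its sign depends on the scaling. Whether the RNA polymerase I genes differ from these lists was not tested. The ribosomal proteins are what the pathway assembles. Among 77 cytosolic ribosomal protein genes, taken by symbol after the data had been seen, 51 were lower and 5 higher, with a median of -0.20 and 0 past the limit of 1 in either direction. Their summed level was 159180.0 ± 3911 TPM in Ctrl and 157057 ± 6086 TPM with WNK463 (SD, n = 3 each), a difference smaller than the spread. Mitochondrial ribosomal protein genes, taken the same way, had 51 lower and 6 higher of 78, and a median of -0.30. The calls and medians of both ribosomal protein lists were taken with TMM scaling and are to be read beside the shift of 0.15 with total counts.

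**Figure D4:**
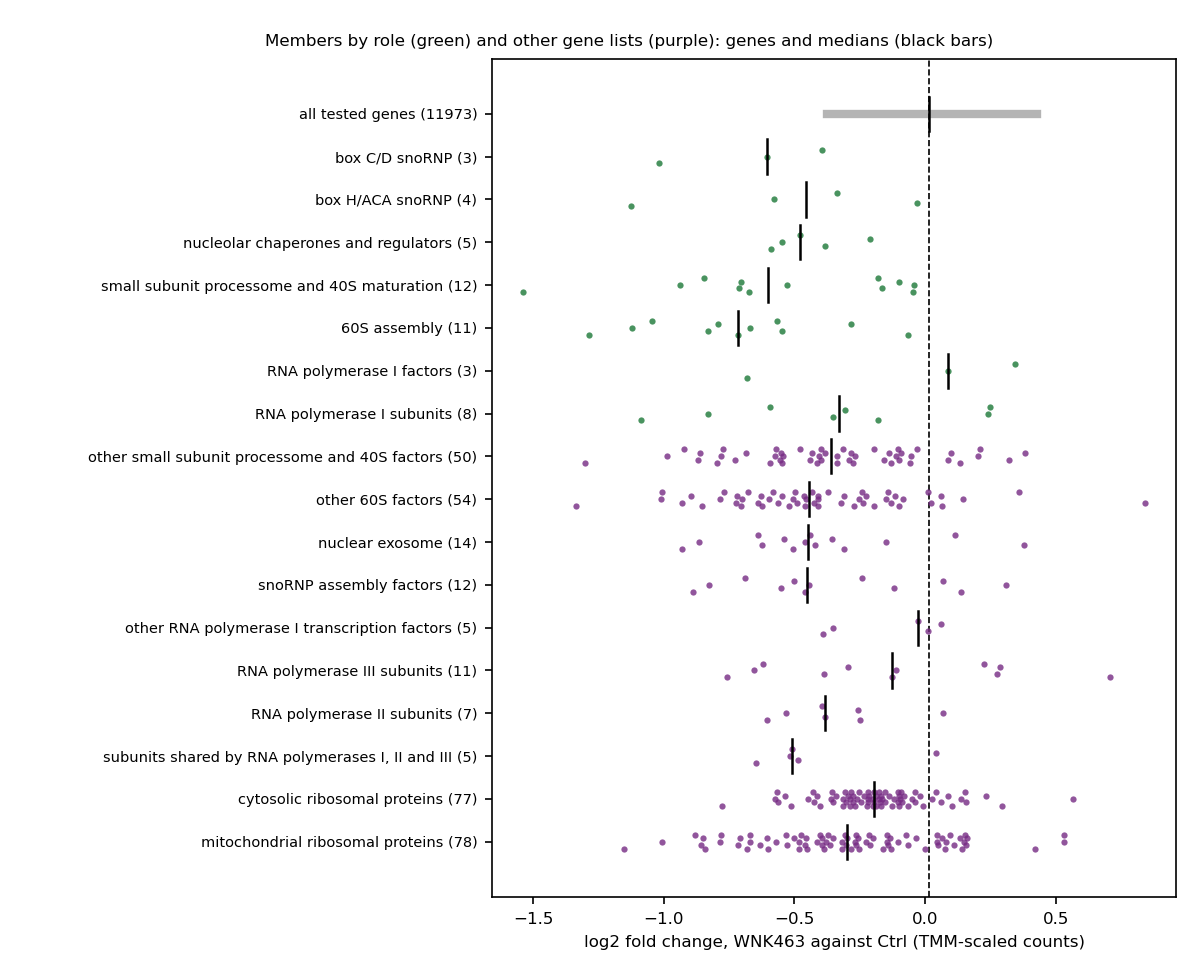
Log2 fold change (WNK463 against Ctrl, x axis) of the members by role (green points) and of other gene lists (purple points), with list sizes in parentheses and black bars for medians; the grey bar spans the quartiles of all tested genes and the dashed line is their median. Large subunit assembly has the lowest median (-0.72), and the RNA polymerase I factors have the highest (0.087).

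The promoters of members were searched for the E-box CACGTG, a palindrome that reads the same on both strands, because many members moved together. RefSeq windows on GRCh38.p14, from 250 bases before to 50 bases after the transcription start, were matched by symbol for 40 of 46 members. *BOP1*, *NOLC1*, *NOP58*, *POLR1E*, *RRP12* and *RRS1* had no entry. The motif was present in 15 of the 40 windows (37.5%), beside 10.3% of 9647 windows of tested genes and 7.43% of all 27305 windows of the same length. Of the 15 members with the motif 14 were lower, with a median log2 fold change of -0.71, and of the 25 without it 17 were lower, with a median of -0.38. Over all tested genes the medians were -0.048 with and 0.011 without the motif. A match is a description of the letters and not evidence of binding.

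The 150 bases before the *UTP20* start, at chr12:101279955-101280104 on the plus strand of GRCh38.p14, are shown because this gene fell furthest; they overlap no exon in GENCODE 29, and the capitals mark the motif, whose first base lies 10 bases before the start.
UTP20: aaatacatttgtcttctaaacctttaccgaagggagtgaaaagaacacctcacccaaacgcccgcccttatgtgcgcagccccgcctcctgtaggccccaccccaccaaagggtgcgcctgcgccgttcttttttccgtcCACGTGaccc

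The motif lay close to the start in the other members that fell most and hold it. Its surroundings are shown over 30 bases, 5′ to 3′ on the strand of the gene, with the motif in capitals, for *MRTO4* (chr1:19251807-19251836, plus strand), *POLR1G* (chr19:45406620-45406649, plus strand), *FBL* (chr19:39846356-39846385, minus strand), *NAT10* (chr11:34105602-34105631, plus strand) and *NOP2* (chr12:6568242-6568271, minus strand). Each stretch overlaps an exon annotated in GENCODE 29. *NHP2* and *RRP1*, with log2 fold changes of -1.13 and -1.05, hold no match. *GNL2* (-0.28), *BYSL* (-0.18) and *LTV1* (-0.16) fell less and hold the motif close to the start as well.
MRTO4: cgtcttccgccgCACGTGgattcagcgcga
POLR1G: cccctttggatcCACGTGgtctgcaacctg
FBL: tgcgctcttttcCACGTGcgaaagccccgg
NAT10: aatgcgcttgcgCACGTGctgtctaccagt
NOP2: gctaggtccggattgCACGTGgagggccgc

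*NOP10* is shown for contrast, since it holds 2 matches and was not called by edgeR (log2 fold change -0.032) and was higher by limma on log2(TPM + 1) (0.16). They lie at chr15:34343289-34343318 and chr15:34343130-34343159, on the minus strand, with first bases 170 and 11 bases before the start.
NOP10, first match: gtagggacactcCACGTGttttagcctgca
NOP10, second match: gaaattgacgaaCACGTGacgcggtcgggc

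*MYC*, the factor gene most often tied to this motif, had 680.3 ± 21.4 CPM in Ctrl and 566 ± 29.4 CPM with WNK463 (SD, n = 3 each), with a log2 fold change of -0.26 (edgeR adjusted p = 8.43e-05) that did not pass with limma on log2(TPM + 1) (-0.061, adjusted p = 0.294). *MYCL* was lower (-1.02), *MAX* was higher (0.54), and *MYCN* had 0 counts in every sample. Summed over these 4 genes the level was 683 ± 27.8 TPM in Ctrl and 724 ± 18.6 TPM with WNK463 (SD, n = 3 each). Of this, *MYC* had 557 and 534 TPM and *MAX* 120.3 and 187 TPM (Ctrl and WNK463). Their part in the members' change was not tested.

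Some members are also host genes of small nucleolar RNAs, which guide the snoRNPs. In GENCODE 29, 9 of 46 members (19.6%) enclose a snoRNA gene on their own strand, beside 1.65% of 11900 tested genes with coordinates. *TAF1D*, on the minus strand of chromosome 11 between 93729948 and 93784391 (GRCh38), encloses 8 of them, and *NOP56*, on the plus strand of chromosome 20 between 2652145 and 2658393, encloses 5. The median log2 fold change was -0.57 in the 9 host members and -0.55 in the other 37. Over all tested genes that enclose a snoRNA gene it was -0.17, beside 0.016 over all tested genes. The small RNAs themselves were not analysed here. Exons of 22 members overlap those of another annotated gene, in 18 of them on the opposite strand, and the strand setting of the counting is not given in the sources used here, so those reads cannot be told apart. *FBL*, on the minus strand of chromosome 19 between 39834458 and 39846414, and *UTP20*, on the plus strand of chromosome 12 between 101280109 and 101386616, have no such overlap. Of the other members whose values are given by sample, *BOP1*, *RRP1*, *NCL*, *NPM1* and *POLR1D* have none either. *MRTO4*, *NHP2*, *POLR1G*, *NOP14*, *UBTF* and *TAF1D* have an overlap on the opposite strand.

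The label of the cells was checked against marker lists. Of 12 myeloid and AML markers 11 were tested, 5 lower and 5 higher, and their summed level was 2936, 3004 and 3070.3 TPM in Ctrl and 2059, 2043 and 2074 TPM with WNK463. *LYZ* was the most abundant of them, at 1697 TPM in Ctrl and 418 TPM with WNK463 (log2 fold change -2.22). Without *LYZ* the sum was 1296, 1320.4 and 1305 TPM in Ctrl and 1646, 1636 and 1640.3 TPM with WNK463. By log2 fold change *MPO* (-2.50), *CD33* (-0.38), *FLT3* (-0.20) and *CD68* (-0.14) were also lower. *CD33* had -0.23 with total-count scaling and -0.15 with limma on log2(TPM + 1), and *MPO* had -1.48 with limma, each still called lower. *FLT3* did not pass with total-count scaling (-0.053) or limma on log2(TPM + 1) (-0.010). *CD68* had 0.0075 with total-count scaling and did not pass with limma on log2(TPM + 1) (-0.13), without Ctrl replicate 1 (-0.11), WNK463 replicate 2 (-0.13) or WNK463 replicate 3 (-0.12). *ITGAM* (1.25), *CSF1R* (0.97), *CD4* (0.66) and *CEBPA* (0.18) were higher, as was *PTPRC* (56.8 TPM in Ctrl and 124 TPM with WNK463). *CEBPA* had 0.33 with total-count scaling and 0.37 with limma on log2(TPM + 1). Of 12 lymphoid, erythroid, epithelial and stromal markers 3 were tested, 5 had 0 counts in every sample (*CD3D*, *MS4A1*, *HBB*, *EPCAM* and *COL1A2*), and the most abundant was *PECAM1*. Summed, they reached 51.2 ± 1.10 TPM in Ctrl and 95.8 ± 1.97 TPM with WNK463 (SD, n = 3 each), most of it *PECAM1*. By log2 fold change *PECAM1* (0.80) and *KRT8* (0.41) were higher and *NCAM1* (-1.32) was lower, which did not pass with limma on log2(TPM + 1) (-0.10). All 5 proliferation markers were lower (median -0.59), with *MKI67* at -0.59 and *PCNA*, the most abundant, at -0.82. Their summed level was 1224, 1314 and 1328 TPM in Ctrl and 956, 975 and 961 TPM with WNK463. The part of these marker changes in the members' fall was not tested.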

How the data were processed

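RNA-seq of MV4-11 cells was analysed for 3 Ctrl and 3 WNK463 samples, grouped by their labels. The submitters' processing notes name fastp, Bowtie2, HISAT2, StringTie, RSEM, DESeq2 and edgeR, without versions, and the build GRCh38. The authors deposited estimated counts per gene, which were rounded, and TPM, scaled by the authors for transcript length and depth. The table's group means, log2 fold changes, p-values and adjusted p-values were not used.

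Counts were tested with edgeR 4.0.16 (R 4.3.3) by the quasi-likelihood method, with TMM factors (0.944 to 1.06), the default filter and Benjamini-Hochberg adjustment over 11973 genes. A standard error is the size of the log2 fold change over the root of its F. The common variation between replicates was 5.21%, and replicate pairs differed beyond sampling noise (chi-square per degree of freedom 2.64 to 7.13). The procedure was tested on simulated data, where DESeq2 missed the first recovery criterion among genes with low counts. The criterion was then limited to genes over 5 CPM. In the simulation few genes changed, with rises and falls drawn alike, whereas most tested genes were called here. It is therefore no check on the scaling or on the calls in these data.

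Members and lists were chosen with earlier results of these data known. Values by sample are printed for members past a log2 fold change of 1 and, in each role, for the called members with the largest fall and rise and the member with the highest TPM over all samples. Of each other list, apart from the ribosomal protein lists, the called genes with the largest fall and rise are named. The choice of further genes followed a look at their values. The alternatives used DESeq2 1.42.0, limma 3.58.1 on TPM, other scalings, filters and thresholds, a replicate block, and each sample left out. From the planned check of cell markers, 1 gene is not reported here.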

Additional observations from a re-analysis of the deposited data

How the results depend on the processing

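Over 736 combinations of a member and an alternative setting, 641 kept their direction and side of the threshold, 66 kept the direction and no longer passed, 8 newly passed and 21 changed sign. These totals include settings that kept the log2 fold changes of the main fit: adjusted p below 0.01, the limit of 1 and the fold of 1.2. Under those settings no sign could change, and a stricter threshold could not add calls, so the total of 641 overstates the stability. The replicate numbers did not pair the samples (correlations of same-numbered deviations 0.019, -0.0071 and -0.048), and with the replicate block 36 members were lower and 2 higher, the same genes, with a median of -0.56. A limit of 1 on the log2 fold change left 7 members lower and 0 higher, 665 lower and 1152 higher among all genes, and 4 lower and 0 higher among the other pathway genes. Under the same limit, a combination chosen after the values were seen, total-count scaling left 2 members and 2 pathway genes lower, and either TPM scale left 3 and 2, with 1 higher pathway gene (*SBDS*, 1.03 and 1.05). Of all tested genes, 3.83% were lower and 12.1% higher past the limit with total counts. The shares were 2.21% and 7.24% with log2(TPM + 1), and 3.47% and 11.5% with log2(TPM + 0.1). At least 10 counts in every sample left 2 pathway genes, and leaving out each sample gave 6 to 7 members and 2 to 6 pathway genes, with 2 without WNK463 replicate 2. Against a fold of 1.2, 29 members were lower and 0 higher, and 3 other pathway genes were higher. Total-count scaling gave 32 lower and 4 higher members, 19 higher pathway genes and a members' median of -0.41. Limma on log2(TPM + 1) gave 29 lower and 5 higher members, 17 higher pathway genes and a members' median of -0.40, with 2698 genes lower and 5164 higher in all. Limma on log2(TPM + 0.1) gave 29, 5, 18 and -0.40, with 2694 and 5158. The members' median was -0.57 with no filter, -0.54 with at least 10 counts in every sample, and -0.59 to -0.54 with each sample left out; 41 or 42 members lay below the all-gene median in every setting. Sign changes under total counts, log2(TPM + 1) and log2(TPM + 0.1) gave 0.12, 0.16 and 0.16 for *NOP10*, 0.11, 0.15 and 0.15 for *WDR75*, 0.11, 0.14 and 0.15 for *RRP12*, and 0.085, 0.12 and 0.12 for *WDR12*. On both TPM scales *BYSL* had 0.019 and 0.020, *LTV1* 0.032 and 0.032, and *POLR1F* 0.013 and 0.014; *UTP15* had 0.051 and *CD68* 0.0075 with total counts. With each sample left out, *NOP10* ranged from -0.10 to 0.015 and *WDR75* from -0.12 to 0.044. The cause of these changes was not tested, beyond the shift of the all-gene median with scaling.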
